A study of Mus musculus with 10 samples.

Results

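The keratins that mark luminal and basal mammary epithelial cells were examined in sorted mouse mammary cells. The luminal keratins were Krt7, Krt8, Krt18 and Krt19, and the basal keratins were Krt5, Krt14, Krt15 and Krt17. They were chosen by name, and all 8 were found among the 26312 genes of the expression table. RNA came from the fourth mammary glands of C57BL/6J mice aged 12 weeks. The gate kept cells with high EpCAM and low CD49f that carried Sca-1 and lacked CD49b, and 50000 such cells were taken. One genotype was RSK2(+/+), called WT here, and the other RSK2(-/-), called KO. Mice were in estrus or in diestrus. Each genotype had 3 libraries at estrus and 2 at diestrus. All 4 groups shared strain, age and gate. The labels name neither a Cre line nor the deleted part of the gene, and they do not say whether a library came from 1 mouse or a pool. The p-values therefore measure the spread between libraries, which may be technical.

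Keratins are the intermediate filament proteins of epithelia. A filament needs a type II and a type I keratin, which pair as obligate heteropolymers: Krt5, Krt7 and Krt8 are type II, and Krt14, Krt15, Krt17, Krt18 and Krt19 are type I. In the mammary duct the inner luminal cells are built on Krt8 and Krt18, joined by Krt7 and Krt19, and the outer basal or myoepithelial cells on Krt5 and Krt14, joined by Krt17. The Sca-1+ CD49b- luminal gate is known for hormone-sensing cells, which carry the receptors for estrogen, progesterone and prolactin. The keratins were compared between the 4 groups and in every library to see how much basal keratin RNA the sorted cells held.

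The normalized read counts, which are read counts that the authors scaled between libraries, summed to between 14108057 and 15307238 per library. These totals follow from that scaling and are not the sequencing depth. Rps6ka3, the gene of RSK2, had 156 to 165 normalized counts in the libraries labelled KO and 128 to 165 in WT. Its RNA was thus not lower in the libraries labelled KO, and a count over the whole gene does not show which exons were read. Every direction given below rests on the labelled genotype. Libraries differed in how counts depended on the exon length of a gene. The log2 level changed by -0.10 to -0.0276 per doubling of length in KO estrus, against -0.0188 to 0.0506 in the other 7 libraries. KO estrus 2 (-0.0276) was close to WT estrus 1 (-0.0188), while KO estrus 1 (-0.1042) and KO estrus 3 (-0.0614) lay further off. The labels give no sequencing batch.

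Some stretches of the keratin messages are shared with other keratin genes, which bears on how reads can be assigned. Of all 50-base words in the Krt8 transcript, 26.9% also occurred in another gene, the processed copy Krt8-ps. The share was 14.4% for Krt14, 8.5% for Krt5, 4.0% for Krt17, 0.7% for each of Krt15 and Krt18, and 0.0% for Krt7 and Krt19. For Krt5, 7.0% of the words occurred in Krt6a, with a longest shared run of 140 bases. Krt6a had 6301 to 24732 counts, against 32 to 502 for Krt5, and its part in the Krt5 counts was not tested. The longest runs that Krt14 shared with other keratins are shown because Krt14 and Krt17 were among the members that varied most between libraries. All come from GENCODE M21 transcripts on GRCm38, all lie in coding exons on the minus strand, and capitals mark the run that is identical in both genes. Krt14 and Krt16 share 134 bases of exon 1 (chr11:100207017-100207150 and chr11:100248476-100248609). Krt14 and Krt17 share 71 bases of exon 6 (chr11:100204114-100204184 and chr11:100257439-100257509).
Krt14 with Krt16: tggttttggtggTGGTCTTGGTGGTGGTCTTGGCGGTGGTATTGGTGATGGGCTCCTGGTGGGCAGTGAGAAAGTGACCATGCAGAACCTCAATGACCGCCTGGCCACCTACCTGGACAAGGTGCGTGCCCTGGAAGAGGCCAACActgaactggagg
Krt16 with Krt14: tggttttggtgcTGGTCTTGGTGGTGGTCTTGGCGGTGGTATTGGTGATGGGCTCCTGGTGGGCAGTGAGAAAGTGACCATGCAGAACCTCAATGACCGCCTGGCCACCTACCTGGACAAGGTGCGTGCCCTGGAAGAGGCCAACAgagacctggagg
Krt14 with Krt17: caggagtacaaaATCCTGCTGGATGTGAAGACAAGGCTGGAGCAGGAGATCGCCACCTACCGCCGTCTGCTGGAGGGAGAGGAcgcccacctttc
Krt17 with Krt14: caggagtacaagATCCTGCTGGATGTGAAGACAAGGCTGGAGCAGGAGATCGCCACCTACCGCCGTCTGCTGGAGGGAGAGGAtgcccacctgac

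The read length and the handling of reads that match several genes are not given in the sources used here, so counts of Krt5, Krt14 and Krt17, and of Krt8 against Krt8-ps, are uncertain by an unknown amount. Krt8-ps was counted at 0.708% to 0.876% of Krt8 in the 10 libraries, a narrow range. Krt7 and Krt19 had no shared 50-base word, but they shared shorter runs of up to 41 bases (Krt7 with Krt73) and 35 bases (Krt19 with each of Krt17 and Krt42).

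The luminal keratins were among the most abundant messages of every library. Krt8, the luminal type II keratin, is encoded on chromosome 15 (ENSMUSG00000049382, 101996698 to 102004482, positions on GRCm38 throughout). Its normalized counts were 191522, 169841 and 130067 in WT estrus and 153441, 160823 and 117649 in KO estrus. In WT diestrus they were 150138 and 184012, and in KO diestrus 139567 and 126346. Per kb of exon sequence, Krt8 ranked between place 4 and place 9 of all genes in every library, and its genotypes overlapped at estrus but not at diestrus. Krt18, its type I partner, lies next to it on chromosome 15 (ENSMUSG00000023043, 102028180 to 102032027). Krt18 counts were 132114, 104875 and 94848 in WT estrus and 112326, 97837 and 126717 in KO estrus. In diestrus they were 92326 and 103769 in WT and 100340 and 94189 in KO. The 4 groups overlapped in Krt18, and its highest library was only 1.43 times its lowest, the narrowest range of the 8 keratins.

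Krt19, a small type I keratin of simple epithelia that lacks a tail domain, lies on chromosome 11 (ENSMUSG00000020911, 100140810 to 100148665). Its counts were 125833, 110531 and 111362 in WT estrus and 97219, 85830 and 92830 in KO estrus. In diestrus they were 116997 and 102524 in WT and 76716 and 84557 in KO. All 5 libraries labelled KO were below all 5 WT libraries, an arrangement that 1.15% of all tested genes showed (174 of 15180). Krt7, the type II keratin of ducts and glands, lies on chromosome 15 (ENSMUSG00000023039, 101411043 to 101430313). Its counts were 38919, 27907 and 27386 in WT estrus and 26362, 22009 and 30601 in KO estrus. In diestrus Krt7 had 31332 and 40188 in WT and 28110 and 26636 in KO, and the genotypes overlapped at estrus but not at diestrus.

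The basal keratins were present at far lower counts, and they varied more. Krt15, a type I keratin of basal layers that is also found in some luminal cells, lies on chromosome 11 (ENSMUSG00000054146, 100131758 to 100135928). Its counts were 955, 702 and 925 in WT estrus and 700, 453 and 1290 in KO estrus. In diestrus Krt15 had 586 and 884 in WT and 366 and 398 in KO. The highest and the lowest estrus library were both KO, and the diestrus groups did not overlap. Krt14, the main type I keratin of basal cells, lies on chromosome 11 (ENSMUSG00000045545, 100203162 to 100207548). Its counts were 903, 191 and 297 in WT estrus and 209, 129 and 228 in KO estrus. In diestrus they were 500 and 186 in WT and 248 and 108 in KO. WT estrus 1 and WT diestrus 1 were the high libraries, and the genotypes overlapped at both stages.

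Krt17, a type I keratin of myoepithelium and of stressed epithelia, lies on chromosome 11 (ENSMUSG00000035557, 100256217 to 100261029). Its counts were 893, 201 and 218 in WT estrus and 253, 155 and 165 in KO estrus, and in diestrus 160 and 127 in WT and 172 and 103 in KO. WT estrus 1 was the highest library, as for Krt14. Krt5, the type II partner of Krt14, lies on chromosome 15 (ENSMUSG00000061527, 101707070 to 101712898). Its counts were 54, 32 and 77 in WT estrus, 502, 149 and 47 in KO estrus, 42 and 32 in WT diestrus and 54 and 34 in KO diestrus. The highest library was 15.7 times the lowest, the widest range of the 8, and it was KO estrus 1 rather than the library high in Krt14. Over the 10 libraries the coefficient of variation was 141% for Krt5, 94.7% for Krt17, 79.4% for Krt14 and 40.2% for Krt15, against 13.0% to 18.9% for the luminal keratins.

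**Figure D1:**
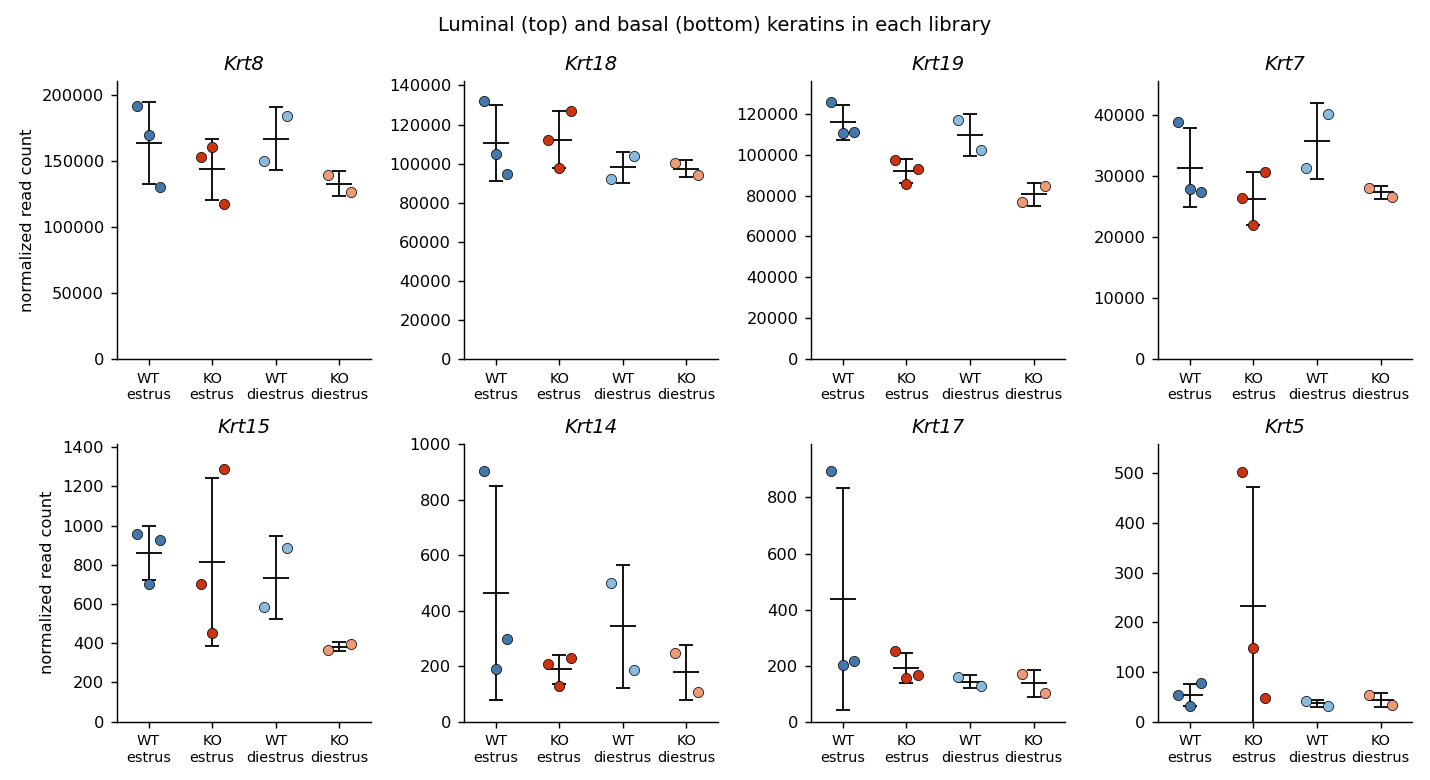
Each point is the normalized read count of 1 library (y axis, linear from 0), the long bars are group means and the whiskers are SD, for 3 libraries per estrus group and 2 per diestrus group. Krt19 in the libraries labelled KO (76716 to 97219) sits below WT (102524 to 125833), while Krt14 and Krt17 are carried by WT estrus 1 (903 and 893) and Krt5 by KO estrus 1 (502), where the lower whisker runs past 0.

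The keratins were ranked against each other per kb of exon sequence. Marker sums, shares of all counts and percentages of the Krt8 count were not divided by length. By the median over the 10 libraries the order was Krt8 with 77523 normalized counts per kb, Krt18 with 71019, Krt19 with 53839, Krt7 with 3973, Krt15 with 397, Krt14 with 124, Krt17 with 109 and Krt5 with 23.0. The steps from Krt18 to Krt19, Krt19 to Krt7, Krt7 to Krt15 and Krt15 to Krt14 held in all 10 libraries. Krt8 was above Krt18 in 8 of 10 libraries, with a ratio from 0.681 to 1.3, so this partner pair did not differ in level beyond its spread. Krt14 and Krt17 also changed places, with Krt14 higher in 5 of 10 libraries. Krt17 was above Krt5 in 9, the exception being KO estrus 1.

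Type I keratins outweighed type II keratins in every library. Krt7, Krt8 and Krt5 together had 0.463 to 0.778 of the level per kb of the 5 type I keratins. Within the basal set Krt5 had 0.0479 to 1.92 times the level of Krt14, lowest in WT estrus 1 and highest in KO estrus 1. In 8 of the 10 libraries Krt5 had fewer than 100 counts, against 108 to 903 for its partner Krt14 over all 10. Krt15 held 32.7% to 73.9% of the summed basal level per kb.

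**Figure D2:**
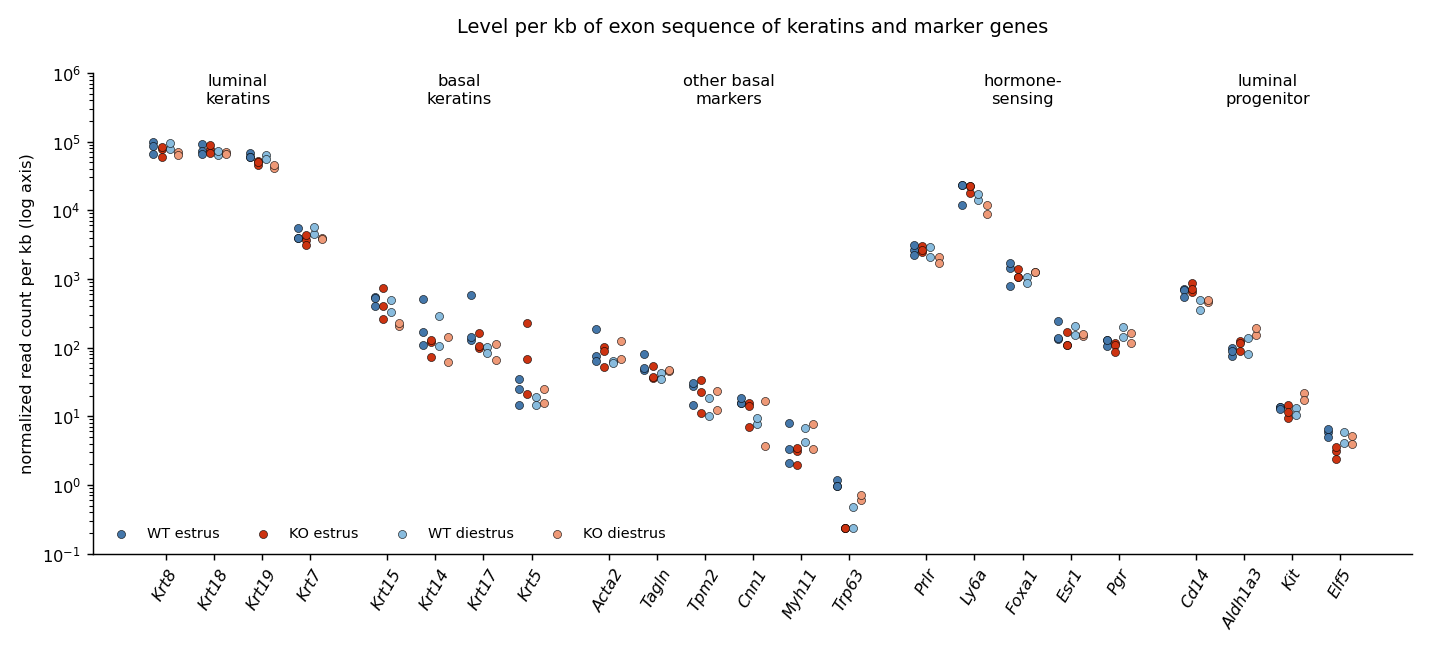
The y axis is the normalized read count per kb of exon sequence on a log axis, with 1 point per library coloured by group, for the 8 keratins and for marker genes of basal, hormone-sensing and luminal progenitor cells. The 3 leading luminal keratins (medians 53839 to 77523) lie above every other gene shown, and the basal keratins (medians 23.0 to 397) lie below Krt7 and Prlr.

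Basal keratins made up a small share of the keratin level in every library. Their share of the summed level per kb of the 8 keratins was 0.452% ± 0.168 (SD, n = 3) in WT estrus and 0.386% ± 0.123 (SD, n = 3) in KO estrus. It was 0.331% ± 0.0316 (SD, n = 2) in WT diestrus and 0.232% ± 0.038 (SD, n = 2) in KO diestrus. Single libraries ran from 0.205% in KO diestrus 2 to 0.625% in WT estrus 1, and the luminal sum was 159 to 487 times the basal sum. The estrus groups overlapped (0.29% to 0.625% in WT, 0.249% to 0.485% in KO), while the diestrus values were 0.353% and 0.308% in WT and 0.259% and 0.205% in KO. Without Krt15, which luminal cells can also make, the shares were 0.237%, 0.162%, 0.142% and 0.114% in the same order of groups. As part of all counts, the 8 keratins took 2.32% to 3.22% and the basal keratins 0.00449% to 0.0184%. In bulk RNA, fewer cells of a type and less RNA per cell cannot be told apart, so these shares are not shares of cells.

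The summed basal markers other than keratins were highest in a library other than the one where Krt14 and Krt17 peaked. The 14 markers of myoepithelial cells other than keratins, 9 of which had a mean of at least 10 counts, summed to 430 to 893 in WT estrus, 335 to 576 in KO estrus, 366 to 454 in WT diestrus and 383 to 647 in KO diestrus. Acta2, the smooth muscle actin of myoepithelium, had 407 counts in WT estrus 3 and 113 to 270 in the other 9 libraries. In WT estrus 1, where Krt14 and Krt17 were highest, Acta2 had 167 and the 14 markers 527. Trp63, the transcription factor that defines basal epithelial cells, had 2 to 10 counts, Oxtr, the oxytocin receptor of myoepithelium, 1 to 12, and Snai2 2 to 15. Trp63 and Oxtr were highest in WT estrus 1, like Krt14 and Krt17, while 7 of the 14 markers, Acta2 among them, were highest in WT estrus 3. In KO estrus 1, where Krt5 was highest, Krt14 had 209, Trp63 2 and Acta2 225. Trp63, Oxtr and Snai2, each with a mean under 10, were thus low in all libraries, including those high in a basal keratin. Other markers of the 14 were counted in every library: Tagln had 70 to 161, Tpm2 29 to 98 and Cnn1 10 to 50.

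**Figure D3:**
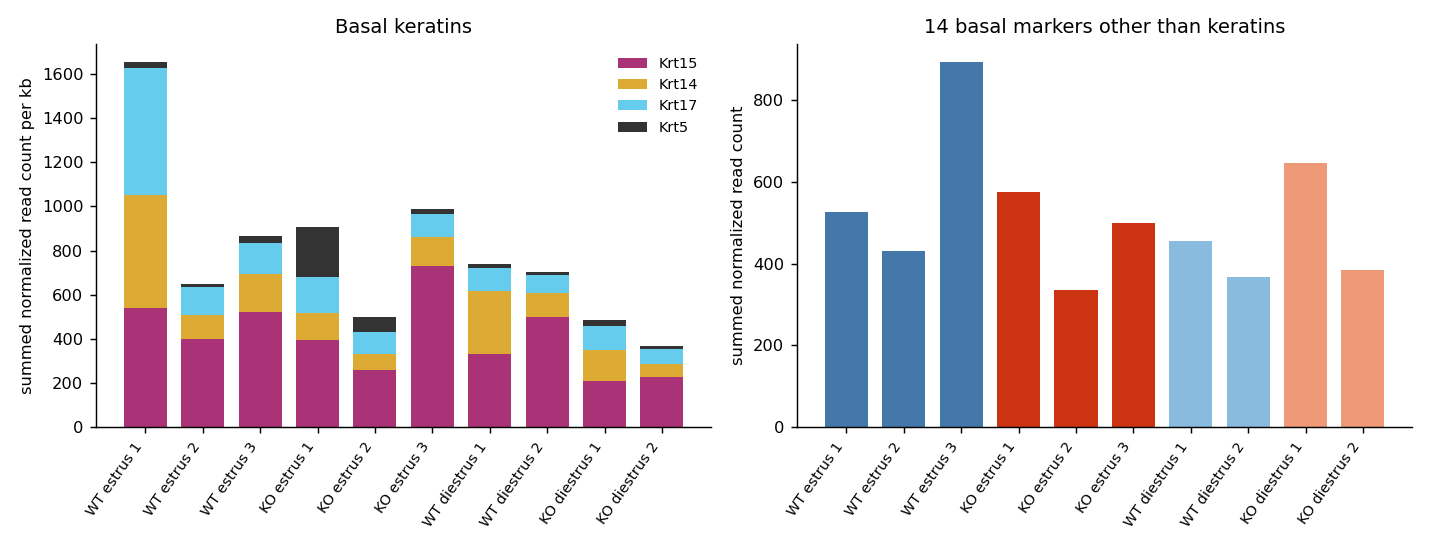
The left panel stacks the normalized read count per kb of the 4 basal keratins in each library, and the right panel gives the summed normalized read count of 14 basal markers other than keratins. WT estrus 1 is highest on the left (1654 per kb), through Krt14 and Krt17, and WT estrus 3 on the right (893).

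The gate was checked against markers of luminal cell types, and most of those of hormone-sensing cells were abundant: the 12 markers summed to 77335 to 122888 counts, although Tnfsf11 had 0 to 38 and Calca 2 to 481. Prlr, the prolactin receptor, had 26088 to 48303 counts, Ly6a, which encodes Sca-1, 10512 to 28010, and Areg, an estrogen-induced ligand of the EGF receptor, 10637 to 25165. Esr1 and Pgr, the receptors for estrogen and progesterone, had 1468 to 3334 and 748 to 1688. The 11 luminal progenitor markers summed to 3044 to 7606 counts. Among them Kit and Elf5 had 83 to 194 and 14 to 38, and the milk and defence genes Csn3, Ltf and Lcn2 had 487 to 1030, 386 to 1773 and 397 to 1164. Itga2, which encodes CD49b and was selected against, had 57 to 339, and Epcam had 35421 to 52849. Among markers of stromal cells, the 7 of fibroblasts summed to 94 to 3103 counts, highest in KO estrus 2, nearly all of it Dcn (3065). Dcn had 64 to 3065 counts over the libraries, while Col1a1, Col1a2, Col3a1 and Pdgfra had at most 11, 9, 21 and 15. The 6 endothelial markers summed to 28 to 114. The 8 macrophage markers summed to 321 to 816, highest in KO estrus 1, with 5 of the 8 at 0 in at least 1 library. The 3 measured adipocyte markers summed to 84 to 405 and the 3 measured lymphocyte markers to 58 to 188. Vim, the filament of mesenchymal cells, had 10 to 32 counts. Whether stromal or immune cells had a part in any keratin difference was not tested.

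At estrus, none of the 8 keratins differed between the genotypes past the threshold, a Benjamini-Hochberg adjusted p under 0.05 over all 15180 genes in limma. The background was 4.2%: 637 of all tested genes were called. At an unadjusted p under 0.05, limma gave 1 keratin, Krt5, against 25.8% of all genes. The Krt5 mean was 233 in KO and 54.3 in WT, a log2 difference of 1.56 ± 0.65 (SE, adjusted p = 0.155 in limma) that rested on KO estrus 1 and 2. Without KO estrus 1 the difference was 0.70 (adjusted p = 0.47 in limma), and without KO estrus 3, the KO estrus library at the WT level, 2.40 (adjusted p = 0.0246 in limma). Krt14 and Krt17 had KO means of 189 and 191 against 464 and 437 in WT. Their log2 differences were -1.02 ± 0.54 (adjusted p = 0.258 in limma) and -0.86 ± 0.47 (adjusted p = 0.273 in limma). Leaving out WT estrus 1 moved these to -0.38 and -0.17. Krt15 differed by -0.20 ± 0.31, with a sign that turned to 0.16 when KO estrus 2 was left out.

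Among the luminal keratins at estrus, Krt19 had a mean of 91960 ± 5744 (SD, n = 3) in KO and 115909 ± 8605 (SD, n = 3) in WT. Its log2 difference was -0.33 ± 0.22 (95% interval -0.81 to 0.14, adjusted p = 0.36 in limma), although its groups did not overlap, as in 26.0% of all genes. The exact two-sided permutation test gave p = 0.1, the smallest that 3 against 3 libraries allow. Krt7 and Krt8 differed by -0.25 ± 0.21 and -0.18 ± 0.27 on the log2 scale. Krt18 differed by 0.03 ± 0.24, with a 95% interval of -0.49 to 0.55, so a change in either direction within these bounds was not excluded by the spread. The median log2 difference was -0.21 over the 4 luminal and -0.53 over the 4 basal keratins, against -0.01 over all tested genes.

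At diestrus, limma again called 0 of 8 keratins against a background of 0.0395% (6 genes, 0.0264% higher and 0.0132% lower in KO), and the unadjusted p was under 0.05 for Krt15 alone against 5.92% of all genes. The KO libraries lay entirely below WT for 4 keratins, Krt19, Krt7, Krt8 and Krt15. With 2 libraries per group, 43.1% of all genes did not overlap. Krt15 had means of 382 ± 22.6 (SD, n = 2) in KO and 735 ± 211 (SD, n = 2) in WT, a log2 difference of -0.91 ± 0.38 (adjusted p = 0.775 in limma). The log2 differences of Krt19, Krt7 and Krt8 were -0.44 ± 0.27, -0.37 ± 0.25 and -0.32 ± 0.33, with adjusted p of 0.917, 0.937 and 0.995 in limma. The smallest p that an exact test of 2 against 2 allows is 0.333, so single genes could not pass there. Over 16 exact permutation tests, 8 keratins at 2 stages, the lowest adjusted p was 0.64.

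Averaged over both stages, 0 of 8 keratins were called by limma, with a background of 0.665%, and 3 had an unadjusted p under 0.05 (14.7% of all genes). These were Krt19 with a log2 difference of -0.39 ± 0.17, Krt14 with -0.95 ± 0.42 and Krt15 with -0.56 ± 0.24. Their adjusted p-values in limma were 0.325, 0.325 and 0.321. Krt19 alone of the 8 did not overlap between the genotypes over all 10 libraries, against 2.2% of all genes in either direction. The size of the genotype difference was not called as different between stages for any of the 8 (limma interaction, 0 at an unadjusted p under 0.05, background 0.0% adjusted and 14.2% unadjusted).

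**Figure D4:**
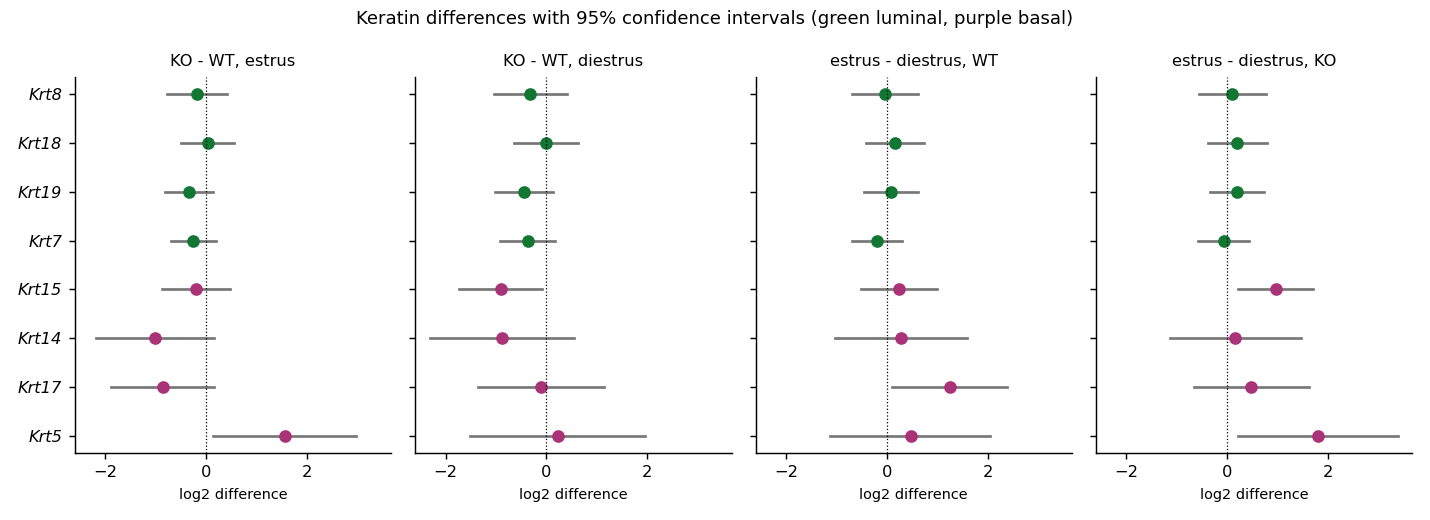
Points are limma log2 differences of normalized counts and lines their 95% confidence intervals, for KO minus WT at each stage and for estrus minus diestrus in each genotype. The intervals of the luminal keratins (green) are narrow and all include 0, and those of the basal keratins (purple) reach from -2.32 for Krt14 at diestrus to 3.39 for Krt5 in KO, with 5 that leave out 0 before adjustment.

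Between stages, all 4 luminal keratins overlapped in WT. In WT limma called 0 of 8 keratins, with a background of 0.0%, and the unadjusted p was under 0.05 for Krt17 alone (3.87% of all genes). Krt17 had 437 ± 395 (SD, n = 3) at estrus and 144 ± 23.3 (SD, n = 2) at diestrus, a log2 difference of 1.25 ± 0.52 (adjusted p = 1.0 in limma). Its mean at estrus rested on WT estrus 1, since the other estrus libraries had 201 and 218, and its stages did not overlap, as in 17.7% of all genes. In KO limma also called 0 of 8, where the background was 16.6%, and 2 had an unadjusted p under 0.05 (33.8% of all genes). Krt15 had 814 ± 430 (SD, n = 3) at estrus and 382 ± 22.6 (SD, n = 2) at diestrus, a log2 difference of 0.96 ± 0.34 (adjusted p = 0.0746 in limma). For Krt5 the means were 233 ± 239 (SD, n = 3) and 44.0 ± 14.1 (SD, n = 2), a log2 difference of 1.81 ± 0.73 (adjusted p = 0.105 in limma). Both depended on single libraries. Krt15 was at 0.56 without KO estrus 3 (adjusted p = 0.149 in limma) and Krt5 at 0.95 without KO estrus 1 (adjusted p = 0.282 in limma). In the other direction, each passed when 1 library was left out: Krt15 at 1.31 without KO estrus 2 (adjusted p = 0.021 in limma), and Krt5 at 2.65 without KO estrus 3 (adjusted p = 0.0118 in limma). Krt19 differed by 0.19 ± 0.24. In KO, Krt15 and Krt19 did not overlap between the stages, as in 51.0% of all genes.

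Correlations between keratins of 1 class across the 10 libraries ran from r = -0.1 to 0.79 over 12 pairs, and no pair passed after adjustment over the 12. Krt14 and Krt17 had the highest, with r = 0.79 (permutation p = 0.0113, adjusted 0.136) and rho = 0.67 (permutation p = 0.0389, adjusted 0.467). Without WT estrus 1 and WT diestrus 1, r was 0.69. These genes share the exon 6 run printed above, and its part in their counts was not tested. The partners Krt5 and Krt14 had r = -0.1 (permutation p = 0.782) and rho = 0.24 (permutation p = 0.503), and r = 0.5 without KO estrus 1 and 2. The partners Krt8 and Krt18 had r = 0.23 (permutation p = 0.529) and rho = 0.37 (permutation p = 0.298), and r = 0.54 without KO estrus 3 and WT estrus 1.

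Among 10379 genes with a mean of at least 50 counts and a symbol that is not that of a predicted gene or clone, leaving out the 8 members, those most like the summed basal keratins over the 10 libraries were Saysd1 (r = 0.917), Ufsp2 (0.9), Polb (0.893), Pttg1 (0.893) and Mettl17 (0.886). Those most like the summed luminal keratins were Hdac8 (r = 0.931), Icam1 (0.931), Fiz1 (0.924), Fam57b (0.896) and Nsfl1c (0.892). These are descriptions over shared libraries, and each had its highest value in WT estrus 1, the library highest in both sums.

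The genes that anchor keratin filaments were tested beside the keratins. Desmosomes, which join the filaments of neighbouring cells, and the linkers of keratins were measured in 14 tested genes. At estrus 1 of them was lower in KO, against 2.94% of all genes: Dsg2, a desmosomal cadherin, with 1500 against 2584 in WT (log2 difference -0.81 ± 0.19, adjusted p = 0.0399 in limma). In KO, 5 were lower at estrus than at diestrus, Dsc2, Ppl, Fam83h, Dsg2 and Pkp2, with log2 differences from -0.96 to -0.58, against 8.95% of all genes lower and 7.67% higher. Leaving out single libraries, the estrus count ran from 0 to 2, and the stage count was 0 without KO diestrus 1 or without KO diestrus 2. The list's median log2 difference was -0.32 at estrus and -0.45 between stages in KO, against -0.01 over all genes in both.

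Hemidesmosomes fix keratins to the basement membrane, and Itga6, which encodes CD49f of the gate, is one of their 8 tested genes. Of these 8, 1 was called lower in KO than in WT at estrus, against 2.94% of all genes. Between stages in KO, 2 were called lower at estrus, Itga6 among them, against 8.95% of all genes. In KO, Itga6 was lower at estrus than at diestrus, by -0.52 ± 0.16 on the log2 scale (adjusted p = 0.0493 in limma), and no gene of the list was called without KO diestrus 1 or without KO diestrus 2. Of 11 tested tight and adherens junction genes of luminal cells, 4 were called lower in KO at estrus, against 2.94% of all genes. Another 4 had log2 differences above 0. Between stages in KO, 5 were called lower at estrus, against 8.95% of all genes. The KO against WT count at estrus was 0 with no filter, with no trend in the spread, or with only the compared groups. Tjp1, Cdh1 and Ocln were lower in KO at estrus, with log2 differences of -0.96 ± 0.22, -0.76 ± 0.18 and -0.70 ± 0.17 (adjusted p = 0.0399, 0.043 and 0.0456 in limma). Cdh1, which encodes E-cadherin, had 12387 in KO and 20820 in WT. No gene of this list was called at estrus when KO estrus 1, WT estrus 2 or either KO library of diestrus was left out, and the length trend was steepest in KO estrus 1 and 3. These 3 genes and Ctnnd1 were lower at estrus than at diestrus in KO, with log2 differences from -1.30 to -0.66, and none was without KO diestrus 1 or 2. With each library's trend on length removed, Tjp1, Cdh1 and Ocln at estrus were at -0.85, -0.71 and -0.66 (adjusted p = 0.0529, 0.0625 and 0.0634 in limma) and no longer passed, nor did Dsg2 (-0.70, adjusted p = 0.0634 in limma). Between stages in KO, Tjp1, Cdh1, Ocln and Ctnnd1 still passed, with log2 differences from -1.16 to -0.53, as did Dsc2, Ppl, Fam83h and Pkp2, while Dsg2 and Itga6 did not (adjusted p = 0.107 and 0.153 in limma).

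Of 5 tested intermediate filament genes outside the keratins, 1 was lower at estrus than at diestrus in KO, against 8.95% of all genes. This was Lmnb1, a nuclear lamin (54.0 against 104, log2 difference -0.95 ± 0.27, adjusted p = 0.0364 in limma). Lmna, the lamin of differentiated cells, had 23946 to 37476 counts. At the same contrast 2 of 5 tested macrophage genes, Cd74 and C1qb, were called higher, against 7.67% of all genes. Their log2 differences were 2.35 ± 0.66 and 4.04 ± 0.86. Cd74 had means of 353 at estrus and 65.5 at diestrus, while C1qb was near the floor, with 27.3 and 0.5. Of the 5 genes, 3 had log2 differences above 0 and 2 below. Csf1r (194 against 235) and Cd68 (102 against 124) had lower means at estrus. At estrus the T cell receptor gene Trbc2, the only lymphocyte marker tested, was higher in KO than in WT (157 against 71.7), against 1.26% of all genes. Whether immune cells had a part in the junction values was not tested.

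Beyond the 8 members, 20 other keratin genes had a mean of at least 10 counts. Krt6a, a type II keratin known from stressed and proliferating epithelia, had 6301 to 24732 counts, and its near copy Krt6b 1389 to 7124. Krt6a had a median of 6291 counts per kb, far above those of the basal keratins. Its place above Krt7 (3973) depended on the length used. The annotated exons of Krt7 cover 7049 bases and its longest transcript 4094, against 2418 and 2372 for Krt6a. By longest transcript Krt7 was the higher of these genes. At estrus Krt6a had 12588 in KO and 18384 in WT (log2 difference -0.71 ± 0.37, adjusted p = 0.256 in limma) and Krt6b 2663 and 4656 (-0.87 ± 0.38, adjusted p = 0.172 in limma). Krt16, the usual type I partner of Krt6a, had 425 to 1340, and Krt4, a type II keratin of mucosal epithelia, 2642 to 9726. Of the 20 genes, 1 was called in any contrast: Krt80 was lower at estrus than at diestrus in KO, with 228 against 422 (log2 difference -0.93 ± 0.26, adjusted p = 0.0316 in limma). In that contrast 8.95% of all tested genes were lower and 16.6% were called in either direction. Krt78 missed the threshold at estrus with 486 in KO and 1231 in WT (-1.22 ± 0.32, adjusted p = 0.0528 in limma).

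Krt5 belonged to a set of keratins that were high in some libraries and low in others of the same group. A keratin was counted as uneven, by a rule chosen after the values were seen, when its highest library had at least 100 counts and at least 10 times the lowest. This held for 10 of the 28 keratins with a mean of at least 10 (35.7%), against 1.11% of all tested genes. The 8 on chromosome 15 were Krt88, Krt83, Krt5, Krt2, Krt1, Krt77, Krt76 and Krt79, and 5 of them lie between Krt5 and Krt8. Krt13 and Krt42 on chromosome 11 were the others. As a percentage of the Krt8 count, Krt5 stood at 0.327% and 0.0926% in KO estrus 1 and 2 and at 0.0174% to 0.0592% in the other 8 libraries. How the counts of these genes arise was not tested.

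**Figure D5:**
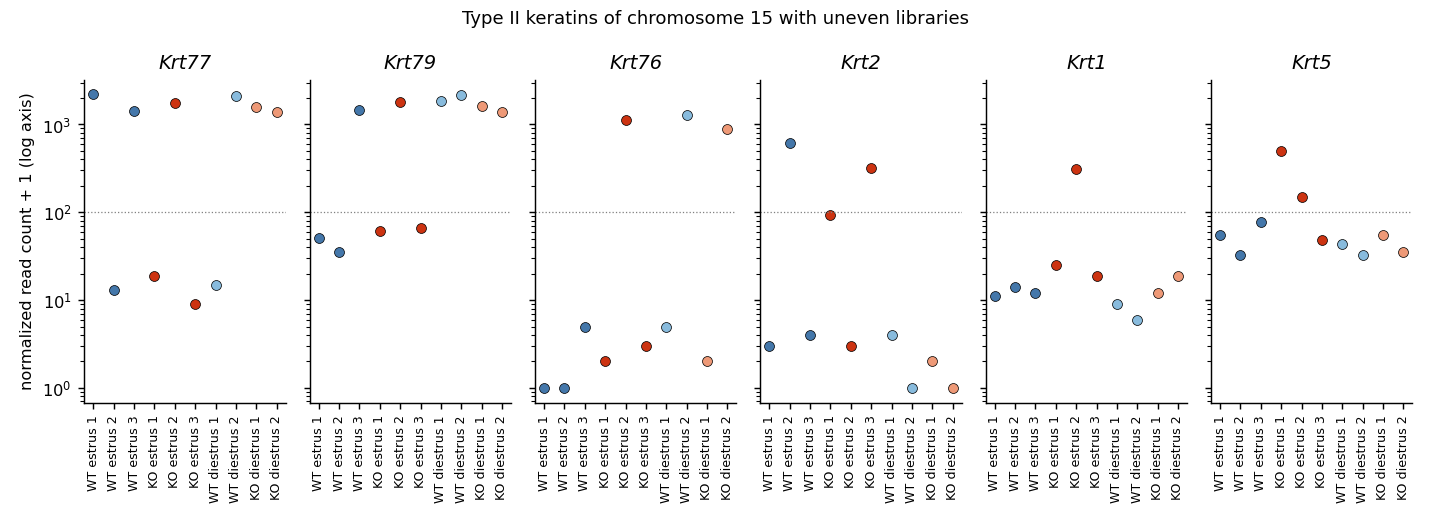
The y axis is the normalized read count + 1 on a log axis and each point 1 library, for 6 type II keratins of chromosome 15, and the dotted line marks 100 counts. Krt77, Krt79 and Krt76 split into libraries of at least 886 and libraries of at most 66 counts, with different libraries high for each gene, while Krt5 passes 100 only in KO estrus 1 (502) and KO estrus 2 (149).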

How the data were processed

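The submitters' processing notes list STAR, HTSeq and DESeq2 with build mm10, without versions or settings, and the kit was TruSeq RNA per the labels' protocols. Each deposited value is a score: a read count that the authors normalized and rounded to a whole number, with no division by gene length. Symbols, positions and exon lengths came from GENCODE M21 (26249 of 26312 Ensembl genes matched). limma 3.58.1 (R 4.3.3, tested on simulated data) was fitted to log2(value + 1) with 1 mean per group and a mean-variance trend, on the 15180 genes with a mean of at least 10. Such log2 differences understate those of low genes. Two-sided p-values of the 6 contrasts were Benjamini-Hochberg adjusted across the 15180 genes, with 0.05 as threshold. Single keratins were also compared by exact permutation (scipy 1.17.1).

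Alternatives were other pseudocounts, filters, scalings and weights, a replicate block, omission of the other groups, and omission of each library. After seeing the data, removal of each library's length trend, omission of WT estrus 1 and KO estrus 1 together, and a share without Krt5 were added. Between genotypes at estrus, the deviations of same-numbered libraries had r of 0.19, 0.08 and 0.03, and those of unlike-numbered libraries -0.15 to 0.08. These ranges overlap, and numbers were not taken as pairs in the main fit, although a pairing at estrus was not excluded.

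Named genes were the 8 members, other keratins with a mean of at least 10, up to 4 called members per list and contrast (otherwise at most 3 of highest mean), the sort genes, Rps6ka3 and the 5 genes most like each keratin sum. Any others were named after their values were seen. The members and lists were chosen with earlier results of these data known. Some list genes and sequences are not reported here.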

Additional observations from a re-analysis of the deposited data

How the results depend on the processing

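The number of keratins called stayed at 0 in all 6 contrasts under every alternative run but 4. Library weights called 1 between stages in KO (Krt5, log2 difference 1.75, adjusted p = 0.0332 in limma). Leaving out single libraries gave 0 to 1 for KO against WT at estrus, where Krt5 passed without KO estrus 3, and 0 to 1 between stages in KO, where Krt15 passed without KO estrus 2 and Krt5 without KO estrus 3. Without KO estrus 1, Krt5 was at 0.70 at estrus and 0.95 between stages in KO, and passed neither. Where an arm was left with 1 library, its spread was borrowed from the other groups. Without Krt15 the mean basal share was 0.237% in WT estrus, 0.162% in KO estrus, 0.142% in WT diestrus and 0.114% in KO diestrus. At estrus 2 differences changed sign: Krt18 with the length trend removed (-0.05) and on leaving out single libraries (-0.08 to 0.16), and Krt15 on leaving out single libraries (-0.60 to 0.16). The cause was not tested. Of 415 alternatives over 19 single keratin differences, 406 kept direction and side of the threshold, 5 changed sign and 4 came to pass it.

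With the replicate number as a block, 0 keratins were called in any contrast, and over all genes the count at estrus went from 637 to 996. Not every library correlated best with its own number. The count over all genes ran from 23 to 996 at estrus, 0 to 147 at diestrus, 0 to 261 over both stages, 0 to 6 between stages in WT, 39 to 3884 between stages in KO and 0 to 6 for the interaction. The fit of the compared groups alone was not run for both stages together or the interaction, which need all groups. Groups of 2 or 3 libraries limit every interval given, and Krt5 had a median of only 50.5 counts over the 10 libraries.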

Other observations

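Krt77 and Krt79, type II keratins of skin and its glands that lie between Krt5 and Krt8, showed the uneven pattern most plainly. Krt77 had 1370 to 2199 counts in 6 libraries (WT estrus 1 and 3, KO estrus 2, WT diestrus 2, KO diestrus 1 and 2) and 8 to 18 in the other 4, with no library between. Krt79 had 1385 to 2148 counts in 6 libraries (WT estrus 3, KO estrus 2 and all 4 of diestrus) and 34 to 66 in the other 4. Krt76 had 886 to 1296 counts in KO estrus 2, WT diestrus 2 and KO diestrus 2 and 0 to 4 in the other 7. The libraries differed from gene to gene, and both genotypes and both stages were on either side for Krt77.

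Where they were high, these keratins held a nearly fixed fraction of Krt8. Krt77 stood at 1.08% to 1.16% of the Krt8 count in its 6 high libraries, where Krt8 itself ran from 126346 to 191522. In the other 4 libraries Krt77 stood at 0.0068% to 0.0117%. For Krt79 the values were 1.1% to 1.24% against 0.02% to 0.0561%, and for Krt76 0.692% to 0.704% against 0.0% to 0.00308%. Krt2 stood at 0.271% and 0.36% in WT estrus 2 and KO estrus 3, and Krt1 at 0.195% in KO estrus 2. This ratio was noticed after the values were seen, and its origin was not tested.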
